A study of Mus musculus with 2 samples.

Results

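The 10 genes described here encode molecular chaperones and their partners, best known for their rise after heat and other protein-damaging stress: Hspa1a, Hspa1b, Hsph1, Dnajb1, Hspb1, Hspa8, Hsp90aa1, Hsp90ab1, Bag3 and Hspe1. They were chosen by symbol, as a list of cytosolic heat shock genes. The rule uses no measured value, but the list was drawn up with earlier results of these data known. All 10 were found among the 22383 features of the deposited count matrices. The word cytosolic does not hold for Hspe1, whose product is the co-chaperonin of the mitochondrial matrix, and its values are given under that name.

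The study asked what loss of the transcriptional cofactors TBL1X and TBL1XR1 in β-cells does to mouse pancreatic islets, and the data used here are single-cell RNA sequencing of islets taken at 5 weeks of age. The control library, labelled wildtype, came from Cre-negative littermates, and the other came from TBL/RβKO mice, which carry floxed Tbl1x and Tbl1xr1 alleles and a Cre gene knocked into the Ins1 locus, so that the Cre is driven by an insulin gene and acts in cells that express it. All mice had a C57BL/6N background and, per the study, normal blood glucose at this age; whether the controls carried floxed alleles is not given in the sources used here. Each group was 1 library of 150 islets pooled from 4 mice, kept overnight at 37 °C in serum-containing medium and then dissociated with a protease for 20 minutes at 37 °C, steps that both libraries share.

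Heat shock proteins form a working chain. HSP70 (Hspa1a, Hspa1b and the constitutive Hspa8) binds unfolded protein in cycles of ATP hydrolysis, J-proteins such as Dnajb1 deliver the clients and start hydrolysis, and exchange factors such as Hsph1 and Bag3 release them; HSP90 (Hsp90aa1, Hsp90ab1) takes over clients near their final fold, and the small heat shock protein Hspb1 holds aggregating protein without ATP. BAG3 also links HSP70 and small heat shock proteins to autophagy. The stress response is driven by heat shock factor 1, which binds heat shock elements, inverted repeats of the letters GAA, in the promoters of its targets. In β-cells, where insulin makes up much of all mRNA, these genes are of interest because protein synthesis is unusually heavy, and because tissue dissociation is itself known to induce some of them.

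The promoter stretches below are shown because they hold the letters of a heat shock element in the windows of the inducible HSP70 pair and Bag3, on which the results turn, and of Hsph1, Hspb1 and Hspe1, which stayed near the median gene. They come from the RefSeq promoter table (assembly GRCm38.p6, 250 bases before to 50 bases after each annotated start), in which 7 of the 10 members matched by symbol; Hspa8, Hsp90aa1 and Hsp90ab1 had no entry. The letters searched were GAANNTTC and TTCNNGAA, each of which reads the same on both strands, and neighbouring matches may overlap. Capitals mark the matches, and positions count from the annotated start.
Hspa1a, chr17:34972233-34972280, minus strand, 124 to 77 bases before the start: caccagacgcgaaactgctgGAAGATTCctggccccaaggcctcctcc
Hspa1b, chr17:34959315-34959362, minus strand, 124 to 77 bases before the start: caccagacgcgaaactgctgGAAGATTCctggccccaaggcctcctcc
Hsph1, chr5:149636342-149636389, minus strand: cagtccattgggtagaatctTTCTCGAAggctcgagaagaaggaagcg
Hspb1, chr5:135887782-135887849, plus strand, 137 to 70 bases before the start: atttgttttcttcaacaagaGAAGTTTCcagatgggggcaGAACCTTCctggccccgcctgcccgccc
Hspe1, chr1:55088039-55088096, plus strand, 109 to 52 bases before the start: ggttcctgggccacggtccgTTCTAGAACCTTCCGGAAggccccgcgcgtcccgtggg
Bag3, chr7:128523603-128523632, plus strand, 21 to 50 bases after the start: ccaagttctctggatgggaccaGAAGTTTC
A match stood in the windows of 6 of the 7 members with an entry, and in those of 4587 of the 27025 genes in the table. Counted by window, it stood in 15.1% of all 32851 (7.86% for GAANNTTC and 8.52% for TTCNNGAA). Hspe1 held 3 matches in an unbroken overlap and Hsph1 held 3 in each of its 2 windows, of which 1 lies before the start; 3 or more matches stood in 0.256% of all windows. The 2 windows of Dnajb1 held none, and the match of Bag3 lies after its start. These are matches of letters, not measured binding sites. Over the 300 bases of their windows Hspa1a and Hspa1b differed at 4 positions, and the stretches printed above are the same.

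In GRCm39, the build named in the submitters' processing notes, Hspa1a lies at chr17:35188166-35191132 and Hspa1b at chr17:35175412-35178214, both on the minus strand and both with 1 exon in GENCODE vM39. Bag3 lies at chr7:128125283-128148705 on the plus strand and has 4 exons. Hspa1a and Hspa1b are near-identical copies: of the 2918 stretches of 50 bases in the Hspa1a transcript, 58.8% also occur in that of Hspa1b. None of the 451 stretches in the last 500 bases of either transcript, where 3′ tags are read, occur in the other. Since the counting may still split reads between the copies, their sum is the main value, and the separate values are uncertain.

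The control library held 7067 barcodes and the other 5833, with median depths of 22509 and 19758 UMIs (unique molecular identifiers, each standing for 1 captured transcript); 14 barcode sequences occurred in both. Barcodes with more than 2500 genes and under 10% mitochondrial UMIs were kept (4747 and 4179) and put into hormone classes by the largest of Ins1 + Ins2, Gcg, Sst and Ppy at 100 or more UMIs per 10000. The insulin class held 2877 control barcodes and 1338 of the other library, the glucagon class 1284 and 1546, the somatostatin class 223 and 374, the pancreatic polypeptide class 259 and 495, and the non-hormone class 104 and 426. Cre stood at 0 UMIs in the control library and at 3107 UMIs in the insulin class of the other, where Tbl1x and Tbl1xr1 were nonetheless higher, at 351 and 129 CPM (UMIs per 1000000 UMIs of the class) against 96.9 and 20.0 CPM in the control. Where the floxed exons lie relative to the 3′ tags is not given in the sources used here, so these tags do not check the deletion. Both genes were higher in every other class too, in the glucagon class at 330 and 62.7 CPM against 263 and 41.0 CPM in the control. Their direction is not the one the label would lead to, while the Cre UMIs go with the label. The second library is therefore called the library labelled TBL/RβKO throughout, also where a direction is drawn from it. The β-cell markers Mafa and Slc2a2 were lower in its insulin class (85.5 against 463 CPM and 55.3 against 316 CPM). A second hormone at 100 or more UMIs per 10000 was held by 813 of its 1338 insulin class barcodes, against 468 of 2877 in the control. The glucagon class went the other way, with 314 of 1546 against 765 of 1284, as did the somatostatin class, with 250 of 374 against 186 of 223. In the pancreatic polypeptide class the counts were 285 of 495 and 146 of 259.

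With 1 library per group no difference between the groups can be tested, and no p-value is given. Levels carry a 95% exact Poisson interval, ratios a 95% exact conditional binomial interval, and shares carry a binomial or Newcombe interval, and all of these cover counting error only: they compare 2 libraries, not the conditions. Because insulin took 4958 of every 10000 UMIs in the control insulin class and 2786 in that of the library labelled TBL/RβKO, the CPM of other genes are shifted, so each log2 ratio (library labelled TBL/RβKO over control) is also given relative to the median gene of the class among genes at 10 CPM or more in either library. That median was 0.31 in the insulin class, 0.10 in the glucagon class, 0.02 in the somatostatin and non-hormone classes and 0.26 in the pancreatic polypeptide class. A gene was counted as past 2-fold when its relative log2 ratio was at least 1 in either direction.

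Summed over the insulin class, all 10 heat shock genes had a higher CPM in the library labelled TBL/RβKO. Relative to the median gene, 8 of 10 lay above and 2 below, by unequal amounts. At matched insulin content Hspb1 went the other way in most bins, as given below. Bag3 was 6.46-fold higher in the library labelled TBL/RβKO and the HSP70 pair Hspa1a + Hspa1b 2.53-fold higher, while the HSP90 genes, Hspa8, Hsph1 and Dnajb1 stayed close to the median gene and Hspb1 and Hspe1 lay just below it. Of the 10 members 2 were past 2-fold higher (Bag3 and Hspa1b) and 0 past 2-fold lower, against backgrounds of 4.36% and 2.25% of the 7918 genes at 10 CPM or more. Hspa1b is not among those genes, and of the 8 members that are, 1 was past 2-fold higher, Bag3. The median over the 10 members was 0.24 relative to the median gene, with a range from -0.11 to 2.38; over all genes tested the median is 0 by construction and the middle 50% lie between -0.20 and 0.22. Of the members, Hspa1b and Hspb1 did not reach 10 CPM, and Hspa1a did so only in the library labelled TBL/RβKO. Bag3 ranked 60 of 7918 genes by its ratio. Leaving out the 8 barcodes highest in the HSP70 pair, described next, leaves 1 member past 2-fold, Bag3.

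**Figure D1:**
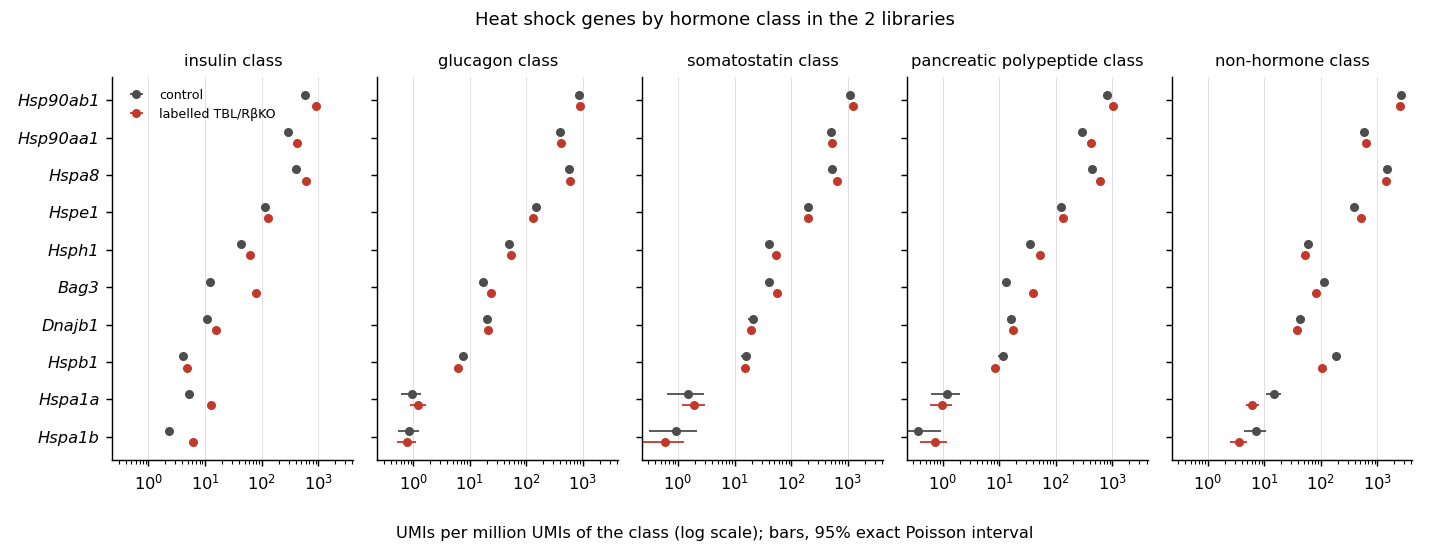
Level of each gene (CPM, log scale) in the 5 barcode classes of the control library (grey) and the library labelled TBL/RβKO (red), with 95% exact Poisson intervals. In the insulin class Bag3 stands apart from the other genes, at 12.4 CPM in the control and 79.9 CPM in the other library.

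**Figure D2:**
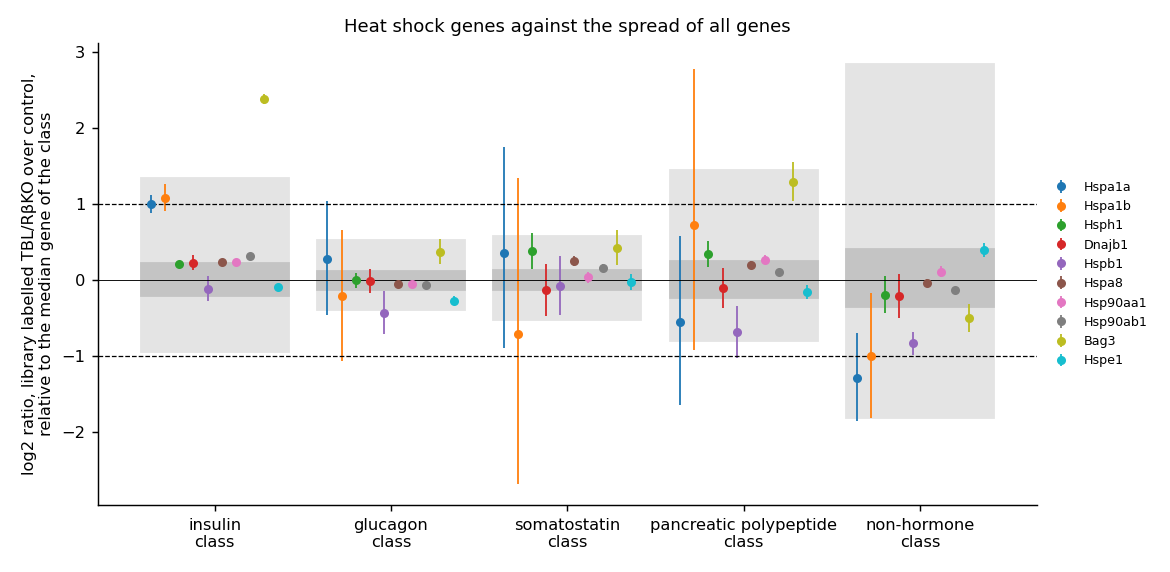
Log2 ratio of each gene relative to the median gene of its class (points, 95% exact conditional binomial intervals), over the range that holds the middle 95% (light grey) and the middle 50% (dark grey) of all genes at 10 CPM or more; dashed lines mark 2-fold. Bag3 lies above the light band in the insulin class, at 2.38, and the wide intervals of Hspa1a and Hspa1b outside that class come from few UMIs.

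Hspa1a and Hspa1b encode the stress-inducible HSP70. Together they stood at 7.55 CPM (7.15 to 7.96) in control insulin class barcodes and at 19.1 CPM (18.3 to 20.0) in those labelled TBL/RβKO. The log2 ratio was 1.34 (1.24 to 1.44). Hspa1a was at 5.22 and 13.0 CPM, and Hspa1b at 2.33 and 6.14 CPM. Both copies were thus higher by a like factor, with relative log2 ratios of 1.00 (0.88 to 1.12), just short of 2-fold, and 1.08 (0.90 to 1.26).

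This difference was held by few barcodes. In the control 4 of 2877 insulin class barcodes had 10 or more Hspa1a and Hspa1b UMIs per 10000, or 0.139% (95% exact binomial interval 0.0379 to 0.356), and they carried 1037 of the 1375 UMIs, 75.4%. In the library labelled TBL/RβKO 4 of 1338 did, or 0.299% (0.0815 to 0.764), and they carried 1783 of 1929, 92.4%. The shares differed by 0.16 percentage points, with a Newcombe interval from -0.124 to 0.635. In the barcodes that remained, the pair stood at 1.86 CPM (1.66 to 2.07) in the control and at 1.45 CPM (1.22 to 1.71) in the library labelled TBL/RβKO. Their log2 ratio was -0.36 (-0.65 to -0.07). The direction of the class total thus turned when these 8 barcodes were left out, a setting added once their values were known. At least 1 UMI of the pair was seen in 10.4% of control and 9.19% of the other insulin class barcodes.

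**Figure D3:**
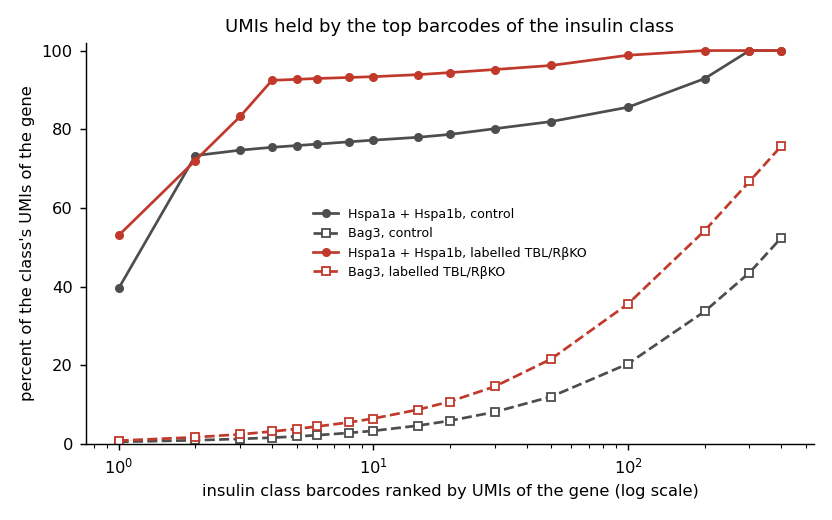
Percent of the insulin class's UMIs of Hspa1a + Hspa1b (filled circles) and of Bag3 (open squares) held by the top barcodes, ranked by UMIs of the gene on a log scale, in the control (grey) and the library labelled TBL/RβKO (red). For the HSP70 pair the 4 top barcodes hold 75.4% and 92.4% of the UMIs, whereas the 10 top barcodes for Bag3 hold 3.37% and 6.50%.

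The 8 high barcodes differed from each other in depth, insulin content and the other heat shock genes. In the control the highest had 464 UMIs of the pair, 121 per 10000, with 4221 insulin UMIs per 10000, and the next had 544 UMIs, 44.2 per 10000, with 4736. The other two control barcodes had 19 and 10 UMIs of the pair, at depths of 12654 and 9862 UMIs, and about 150 insulin UMIs per 10000, a level near the class threshold; the deeper of them also carried macrophage markers. The first pair of control barcodes thus held nearly all of these UMIs.

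In the library labelled TBL/RβKO the highest barcode had 1023 UMIs of the pair, 298 per 10000, with 5085 insulin UMIs per 10000. The next had 367 UMIs, 145 per 10000, and 365 insulin UMIs per 10000. The remaining barcodes had 177 and 216 UMIs at depths of 87876 and 145816 UMIs, with 4122 and 3885 insulin UMIs per 10000. The deeper of them carried listed duct markers, some of which the hormone classes also hold. No barcode of any other class in either library reached 10 per 10000, and the exact upper limits for 0 barcodes were 0.287% and 0.238% in the glucagon classes of the control and the library labelled TBL/RβKO. In the smaller classes these limits were wider, at 1.64% and 0.981% for somatostatin, 1.41% and 0.742% for pancreatic polypeptide and 3.48% and 0.862% for non-hormone barcodes, above the insulin class shares. The highest level outside the insulin class was 3.44 per 10000.

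Within the high barcodes the other members were mostly above the rest of the class, each to a different degree. Control barcodes ranked 3 and 4 and the one ranked 2 in the other library held only 150 to 365 insulin UMIs per 10000. The class totals were 4958 and 2786, a difference that by itself raises the level of other genes in these barcodes. Dnajb1, the J-protein that serves inducible HSP70, was above the rest in 8 of 8, from 3.08-fold to 203-fold. Its counts ran from 1 to 234 UMIs. They were 4 or fewer in control barcodes ranked 2, 3 and 4 and in those ranked 1 and 2 in the other library. Hsph1, the HSP110 exchange factor, was above in 7 of 8 with a median of 15.9-fold, and at 0 UMIs in the other. Hsp90aa1, the stress-inducible HSP90, was above in 8 of 8, from 2.21-fold to 56.1-fold.

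Hspb1 ranged from 0 UMIs in 2 of the 8 to 742-fold above the rest in the highest control barcode. Bag3 was above in 7 of 8, with a median of 4.19-fold and a maximum of 8.20-fold, well under the factors of Hsph1 and Dnajb1. In the control barcodes these Bag3 values rest on at most 2 UMIs each. The highest control barcode therefore held nearly the whole set, with 60.0 Hsph1, 25.3 Hspb1 and 163 Hsp90aa1 UMIs per 10000. The highest barcode labelled TBL/RβKO held the pair at a higher level with only 8.73 Hsph1, 0 Hspb1 and 9.31 Hsp90aa1 UMIs per 10000.

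Some of these barcodes were also high in other chaperone lists. The summed J-proteins were above the 95th percentile of the rest of the class in 3 of 4 control and 3 of 4 other barcodes. The summed ubiquitin and BAG genes were above it in 3 of 4 and 4 of 4. Subunits of the cytosolic chaperonin TRiC and mitochondrial chaperones were each above it in 4 of 4 and 1 of 4. Endoplasmic reticulum chaperones and HSP90 co-chaperones were each above it in 3 of 4 and 2 of 4. Other HSP70 genes were above it in 1 of 4 and 2 of 4, and other small heat shock proteins in 1 of 4 and 1 of 4. The immediate early genes, which are known to respond to tissue dissociation, were above it in 2 of 4 and 1 of 4; their part in the HSP70 levels was not tested.

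**Figure D4:**
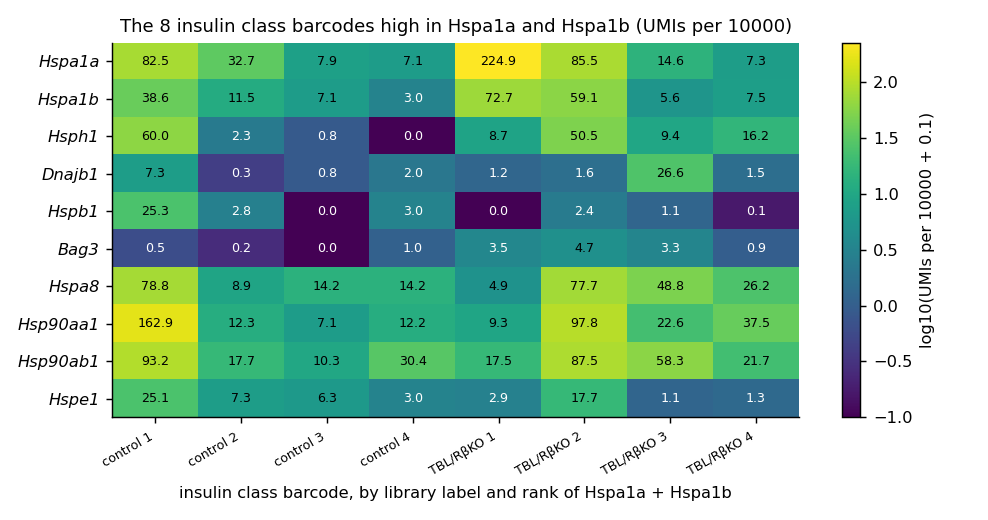
UMIs per 10000 of each heat shock gene (numbers; colour, log10 of the value plus 0.1) in the 8 insulin class barcodes with 10 or more Hspa1a and Hspa1b UMIs per 10000, by library label and rank. Bag3 stays at or under 4.73 in every column, while Hsph1 ranges from 0 to 60.0.

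Across the barcodes of the insulin class Hspa1a and Hspa1b followed each other, with a Pearson r of log(1 + UMIs per 10000) of 0.82 over 2877 control barcodes and 0.95 over 1338 others; the points share a library, and depth differs among them. Without the high barcodes these values were 0.24 and 0.08. The largest value among the other pairs with the high barcodes left out was 0.64 in the control, for Hspa8 with Hsp90ab1, the abundant constitutive chaperones. In a search over 10671 other genes seen in at least 5% of barcodes of the insulin and glucagon classes of both libraries, the gene whose pattern was most like that of the HSP70 pair was Serpinh1, which encodes the collagen chaperone HSP47. Its smallest r over the 4 sets was 0.05, and those of Ppp2ca, Wwc2, Col4a1, Swt1, Eif3k, Prpf31 and Jun, next in order, were between 0.04 and 0.05, too weak to be read as a likeness.

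Bag3, the co-chaperone that couples HSP70 to autophagy, had the opposite makeup: it was higher across most barcodes. Its level in the insulin class was 12.4 CPM (11.9 to 12.9) in the control and 79.9 CPM (78.2 to 81.7) in the library labelled TBL/RβKO. The log2 ratio was 2.69 (2.62 to 2.76), or 2.38 (2.31 to 2.44) relative to the median gene. The share of insulin class barcodes with a Bag3 UMI was 46.1% and 82.0%, at median depths of 53346 and 67897 UMIs. With each barcode thinned to 5000 UMIs, which left out none, it was 6.50% (5.63 to 7.46) and 26.1% (23.7 to 28.5). In the glucagon class the thinned intervals were 6.52% to 9.56% and 9.48% to 12.7%. B cell barcodes, the lowest for Bag3, had a UMI in 6.45% unthinned.

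The middle and upper part of the distribution over barcodes was higher in the library labelled TBL/RβKO. In the control the median barcode had 0 Bag3 UMIs per 10000, the 90th percentile was 0.354 and the maximum 9.36. In the library labelled TBL/RβKO these were 0.45, 2.00 and 8.31, and the 10th percentile was 0 in both. The 10 barcodes richest in Bag3 UMIs held 3.37% and 6.50% of them.

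Bag3 was also higher at matched insulin content. Between 2000 and 3000 insulin UMIs per 10000 it stood at 18.5 CPM in 111 control barcodes and at 95.6 CPM in 240 of the other library, 5.18-fold higher. The factor was 5.38 between 3000 and 4000, 5.04 between 4000 and 5000 and 4.45 at 5000 or more, where 1532 control and 141 other barcodes stood at 9.60 and 42.7 CPM. The Poisson intervals of the libraries did not overlap in any of the 7 bins.

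Below 2000 the factor was smaller, at 2.75, 2.39 and 1.60 from the 1000 to 2000 bin down to the 100 to 500 bin, and control barcodes were few there. The lowest control bin held 150 barcodes at a median depth of 8974 UMIs, of which 34.0% had 3 or more markers of a non-endocrine cell type. Counted per 1000000 UMIs other than insulin, control Bag3 was nearly level above 2000 insulin UMIs per 10000 (22.3 to 25.9), and that of the library labelled TBL/RβKO ran from 96.2 to 128.

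**Figure D5:**
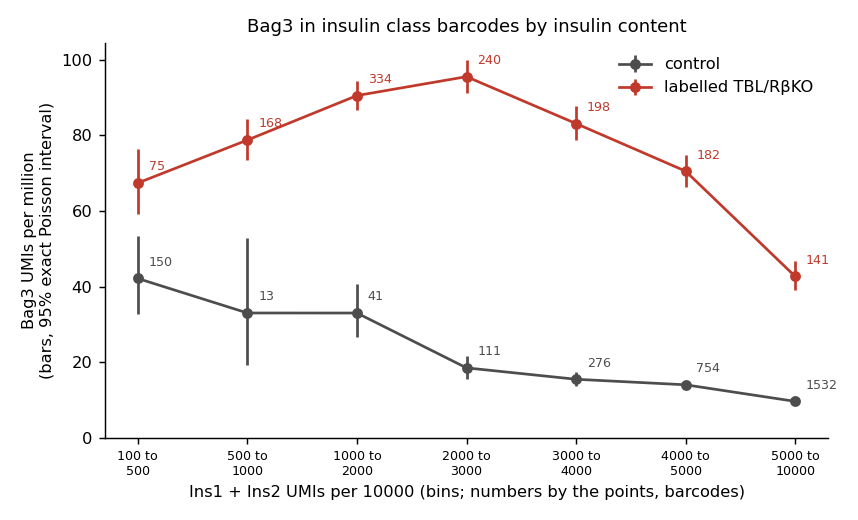
Bag3 level (CPM, 95% exact Poisson intervals) in insulin class barcodes binned by Ins1 + Ins2 UMIs per 10000, in the control (grey) and the library labelled TBL/RβKO (red); the numbers beside the points are barcodes. The red points lie above the grey in every bin, by 5.18-fold between 2000 and 3000 and by 1.60-fold between 100 and 500.

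Markers listed for other cell types were detected in some of these barcodes, but not all are particular to those types here. Tspan8, listed for duct, stood at 635 and 436 CPM in the pancreatic polypeptide class, against 8.06 and 28.0 CPM in the non-hormone class. Control Cldn4 stood at 42.6 and 2.90 CPM in these classes, whereas Krt19 and Spp1 were highest in the non-hormone class of both libraries. The markers are therefore not a measure of other cells in these barcodes. Among insulin class barcodes at 500 or more insulin UMIs per 10000, 14.7% of the control and 42.5% of the library labelled TBL/RβKO had 3 or more detected markers of 1 non-endocrine cell type, at median depths of 55019 and 70196 UMIs. With such barcodes left out of the insulin class, also a setting added later, Bag3 had a relative log2 ratio of 2.47 (2.38 to 2.55), as large as with them. The 6 endothelial markers, of the cell type with the highest Bag3, lay between 1.67 and 5.09 CPM in the control insulin class and between 1.65 and 5.26 CPM in the other. All 5 duct markers and all 6 stromal markers were higher in the library labelled TBL/RβKO, among them Krt19 (1.12 and 63.6 CPM), Spp1 (23.8 and 150 CPM), Cldn4 (22.9 and 92.0 CPM) and Col1a1 (0.181 and 6.43 CPM), and all 6 macrophage markers were lower. In the non-hormone class of that library, duct and stromal marker barcodes held Bag3 at 97.6 and 127 CPM.

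In the library labelled TBL/RβKO, Bag3 stood at 75.6 CPM (73.6 to 77.6) in 1064 insulin class barcodes with no Cre UMI and at 93.5 CPM (89.7 to 97.4) in 274 with at least 1. The latter were deeper (median 81403 against 64693 UMIs), and both values lie far above the control. In its glucagon class Bag3 stood at 21.3 CPM (19.7 to 23.0) in barcodes under 100 insulin UMIs per 10000 and at 42.8 CPM (35.9 to 50.7) in the 75 between 100 and 500. The control glucagon class had 16.9 and 17.8 CPM over the same ranges. Bag3 was lower in the control insulin class, at 12.4 CPM, so insulin class RNA mixed into these barcodes could not have raised their level. The upper range also held unlike shares of the glucagon class, 597 of 1284 control barcodes against 75 of 1546 labelled TBL/RβKO. The control values are thus no check on the difference above, whose cause was not tested.

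Of each list of other chaperone genes, the 2 with the largest log2 ratio of CPM in either direction are named, and those that work with BAG3 come first. This ratio is not set against the median gene, at 0.31, so the choice favours genes above it, and the lowest relative value is given for lists that reach further below. Hspb8 is a small heat shock protein that binds BAG3. It stood at 1.52 CPM (1.34 to 1.70) in the control insulin class and at 12.0 CPM (11.3 to 12.7) in that labelled TBL/RβKO. That is a relative log2 ratio of 2.67, and Hspb8 UMIs were seen in 7.58% and 46.0% of barcodes. In the pancreatic polypeptide class Hspb8 stood at 13.4 and 16.9 CPM, and in the glucagon class at 4.83 and 4.89 CPM. Sqstm1, which encodes the autophagy cargo receptor p62, stood at 163 and 551 CPM, a relative log2 ratio of 1.44. In the other hormone classes it stood at 212 to 325 CPM in the control and at 273 to 458 CPM in the library labelled TBL/RβKO. Sqstm1 differed less at matched insulin content, with log2 ratios not set against the median gene of 1.54 between 500 and 2000 insulin UMIs per 10000 and of 0.71 at 5000 or more, against 2.70 and 2.06 for Hspb8.

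Bag2, a BAG-family regulator of HSP70 and of its ubiquitin ligase partner, was the reverse of Bag3, with 15.8 CPM (15.3 to 16.4) in the control and 5.14 CPM (4.71 to 5.60) in the library labelled TBL/RβKO, a relative log2 ratio of -1.94. In the glucagon class Bag2 had 19.1 and 19.8 CPM. It had 13.6 and 10.9 CPM in the somatostatin, 9.28 and 6.91 CPM in the pancreatic polypeptide and 8.70 and 21.9 CPM in the non-hormone class. Hspa2, another HSP70, was lower as well, at 11.3 and 6.15 CPM, a relative log2 ratio of -1.19, and Hspa12b of the same family stood at 1.02 and 1.65 CPM. Fkbp5, an HSP90 co-chaperone known as a glucocorticoid target, was higher, at 32.1 and 113 CPM. This log2 ratio of 1.81 shrank to between 0.52 and 1.00 at matched insulin content. In the glucagon class Fkbp5 stood at 93.6 and 112 CPM, and in the pancreatic polypeptide class at 51.3 and 123 CPM. Cryab, which encodes αB-crystallin, was at 0.648 and 9.78 CPM, but 10 barcodes held 87.2% of its UMIs in the library labelled TBL/RβKO.

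The other lists had few genes past 2-fold in the insulin class. Of the HSP90 co-chaperones at 10 CPM or more 1 of 9 was past 2-fold higher (Fkbp5), and the next in size was Ptges3, the p23 co-chaperone, at 96.2 and 151 CPM. Of the J-proteins 0 of 8 passed 2-fold, with a median of 0.08 and with Dnajc7 and Dnaja2 at relative log2 ratios of 0.27 and 0.25, and the lowest was -0.51. Of the subunits of TRiC, the cytosolic chaperonin, 0 of 8 did, with a median of 0.07 and with Cct8 and Tcp1 at 0.23 and 0.15, and the lowest was -0.31.

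Among the BAG, ubiquitin and regulator genes 1 of 13 was past 2-fold higher (Sqstm1) and 1 lower (Bag2), with a median of -0.02, and among the other HSP70 genes 1 of 6 was lower (Hspa2), with a median of -0.11. Hsf1, the gene of heat shock factor 1, stood at 10.4 and 12.4 CPM, a relative log2 ratio of -0.06; it is named for its role and not by size. Of the endoplasmic reticulum chaperones 0 of 10 passed 2-fold, with a median of -0.11 and with Herpud1 and Hspa5, the endoplasmic reticulum HSP70, at 0.43 and 0.20, and the lowest was -0.67. Of the immediate early genes 0 of 10 did, but 8 of 10 lay below the median gene, with a list median of -0.36 and a lowest value of -0.62. Jun and Atf3, at 0.49 and 0.32, were the 2 above it. In the glucagon class no gene of these lists at 10 CPM or more was past 2-fold.

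The constitutive chaperones were seen in nearly every insulin class barcode. Hsp90ab1, the constitutive HSP90, stood at 580 CPM (577 to 584) in the control and at 900 CPM (894 to 905) in the library labelled TBL/RβKO, a relative log2 ratio of 0.32. Hspa8, the constitutive HSP70, stood at 412 and 605 CPM (relative log2 ratio 0.24), and Hsp90aa1 at 294 and 430 CPM (0.23). All of these lie inside the middle 95% of genes in this class, from -0.95 to 1.35. At matched insulin content Hsp90ab1 was 1.03-fold to 1.29-fold and Hspa8 1.17-fold to 1.24-fold higher in the library labelled TBL/RβKO over all 7 bins, less than their 1.55-fold and 1.47-fold in the class as a whole.

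Hsph1 was at 43.0 CPM in the control insulin class and at 61.8 CPM in that labelled TBL/RβKO, a relative log2 ratio of 0.21 (0.16 to 0.26). Dnajb1 was at 10.7 and 15.7 CPM, a relative log2 ratio of 0.23 (0.13 to 0.33). The Dnajb1 value rests in part on 1 barcode, which held 234 of its 1583 UMIs in the library labelled TBL/RβKO. Without the 8 high barcodes its relative log2 ratio had an interval from -0.11 to 0.10. Hspe1, the mitochondrial co-chaperonin, was at 114 and 133 CPM, a relative log2 ratio of -0.10 (-0.13 to -0.07). The list of other mitochondrial chaperones had a median of 0.25 over 6 genes, of which 0 passed 2-fold, and Hspa9, the mitochondrial HSP70, and the protease Lonp1 led it at 0.43 and 0.36.

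Hspb1, a small heat shock protein abundant in muscle, endothelium and epithelia, was scarce in hormone barcodes, at 4.14 CPM (3.85 to 4.45) and 4.77 CPM (4.36 to 5.22) in the insulin class. The top 10 barcodes held 53.2% and 45.2% of its UMIs there. At matched insulin content Hspb1 was lower in the library labelled TBL/RβKO in every bin except 500 to 1000, from 0.0976-fold to 0.599-fold. In the excepted bin it was 5.13-fold higher, on 1 control UMI. In control barcodes between 100 and 500 insulin UMIs per 10000 Hspb1 stood at 65.4 CPM and at 5000 or more at 0.858 CPM. In these barcodes 3 or more markers of a non-endocrine cell type were detected in 34.0% and 9.01%. The bins between did not follow this order. Hspb1 stood at 11.4 CPM between 1000 and 2000, where the share was 61.0%, and at 32.1 CPM between 2000 and 3000, where it was 49.5%. In the non-hormone class Hspb1 stood at 352 CPM (323 to 383) in the 42 control barcodes with endothelial markers and at 263 CPM (226 to 305) in 40 of the library labelled TBL/RβKO, at 314 CPM in its 28 duct marker barcodes, at 1.19 and 3.03 CPM in macrophage marker barcodes and at 0 UMIs in its 62 B cell barcodes. The part of such cells in the insulin class level of Hspb1 was not tested.

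In the glucagon class 0 of the 10 members were past 2-fold in either direction, against backgrounds of 0.712% higher and 0.156% lower among 8986 genes. Hspa1a + Hspa1b had 51 and 67 UMIs, or 1.77 CPM (1.32 to 2.33) and 2.00 CPM (1.55 to 2.54), and the interval of their log2 ratio, -0.37 to 0.73, spans both directions. Bag3 had the highest relative log2 ratio of the members, 0.37 (0.21 to 0.54), with 17.1 and 23.7 CPM. The median over the 10 members was -0.05, and the lowest value was -0.43, for Hspb1.

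In the somatostatin class the count was also 0 of 10, against 0.877% higher and 0.541% lower. Bag3 stood at 41.0 CPM (35.8 to 46.8) and 55.7 CPM (51.2 to 60.4), above its glucagon class level in both libraries, and Hsph1 at 40.7 and 53.6 CPM, relative log2 ratios of 0.42 and 0.38. The HSP70 pair had 13 and 26 UMIs, too few to show a difference.

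In the pancreatic polypeptide class 1 of 10 was past 2-fold higher and 0 lower, against 4.62% and 1.17%. That member was Bag3, with 13.3 CPM (11.3 to 15.7) in the control and 39.0 CPM (36.4 to 41.8) in the library labelled TBL/RβKO, a relative log2 ratio of 1.29 (1.03 to 1.55). With barcodes of 6000 or more genes left out, or with barcodes that hold a second hormone left out, it was 0.56, short of 2-fold. In barcodes of this class under 100 insulin UMIs per 10000 Bag3 stood at 13.7 and 27.5 CPM, and between 100 and 500 at 11.8 and 54.1 CPM. Cre UMIs were seen in this class too, 43 in the library labelled TBL/RβKO.

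In the non-hormone class 0 of 10 were past 2-fold higher and 1 lower, Hspa1a, against 11.9% and 7.82%. Hspa1a reached 10 CPM in the control alone, so nothing is read from that count. It stood at 14.8 CPM (10.9 to 19.8) and 6.21 CPM (4.76 to 7.96), on 46 and 62 UMIs, and Hspb1 at 183 and 105 CPM. The makeup of the class differed between the libraries. Of the control barcodes 42 carried endothelial markers, the group with the most Hspa1a (23.3 CPM), and of those labelled TBL/RβKO 40 of 426 did, with 62 B cell barcodes that held 0 UMIs of the pair. Among endothelial marker barcodes alone Hspa1a stood at 23.3 and 20.9 CPM and Bag3 at 183 and 161 CPM. Bag3 stood at 103 and 127 CPM among stromal and at 9.56 and 19.2 CPM among macrophage marker barcodes. In the 7 and 142 barcodes given no cell type it stood at 59.0 and 43.2 CPM.

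Ordered by level, the non-hormone class was highest in the control for all members: Hsp90ab1 stood at 2684 CPM there against 580 to 1082 CPM in the hormone classes, Hspa8 at 1460 against 412 to 569 CPM, and Bag3 at 114 against 12.4 to 41.0 CPM. The control insulin and pancreatic polypeptide classes were neighbours for Bag3, at 12.4 and 13.3 CPM with overlapping intervals. In the library labelled TBL/RβKO the order of CPM for Bag3 was different. The insulin class (79.9 CPM) stood beside the non-hormone class (82.3 CPM), with overlapping intervals. The glucagon class was lowest (23.7 CPM). Insulin took 4958 and 2786 of every 10000 UMIs in the insulin classes of the control and the other library. In their non-hormone classes it took 60.2 and 15.6. That share by itself lowers the CPM of the insulin class. Its place in both orders, and these overlaps, therefore depend on the scaling.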

How the data were processed

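Islet cells were profiled with Chromium 3′ chemistry (version 3.1). Per the labels and the study's methods, the authors made the deposited count matrices with Cell Ranger 7.1.0 and GRCm39 as the build, and the matrices hold a Cre feature; the annotation release is not given in the sources used here. Values are whole UMI counts with no normalization, and no barcode held under 500 UMIs. The study describes removal of ambient RNA and doublets in its own analysis; neither was applied here.

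Barcodes were filtered and classed as described in the report, counts were summed per class and divided by the class total (CPM), and a pseudocount of 0.5 entered only the median gene. Scrublet in scanpy 1.11.5 marked 84 control barcodes and 1 of the other library by its automatic threshold, which had therefore not worked, so the 334 and 231 highest scores were left out only as an alternative. Functions were tested on simulated data. The 10 members and the lists were chosen with earlier results of these data known. Named are all members in every class, of each list the 2 genes with the largest log2 ratio of CPM in either direction in the insulin class at 100 or more UMIs over both libraries, the 8 genes most like the HSP70 pair, and Hsf1, added for its role. Analyses used Python 3.11.15, NumPy 2.4.6, SciPy 1.17.1 and pandas 2.3.3.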

Additional observations from a re-analysis of the deposited data

Results flagged for a closer look

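Bag3 differed in direction between classes relative to the median gene: its log2 ratio was 2.38 in the insulin class and -0.49 in the non-hormone class, a difference of 2.87. For Hspa1a the values were 1.00 and -1.28, a difference of 2.28, and for Hspa1b the difference was 2.08, from 1.08 in the insulin class. With 1 library per group these differences between classes were not tested, and the cell types in the non-hormone class were not the same in the libraries. Within its endothelial, stromal or macrophage marker barcodes taken alone, the Bag3 intervals of the libraries overlapped. Bag3 was lower in the library labelled TBL/RβKO in the endothelial and higher in the stromal and macrophage ones.

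In barcodes that the filter left out some members were higher than in the control and others lower. Among barcodes with 2500 genes or fewer (631 and 557), Hspa1b stood at 1.54 CPM in the control and 12.1 CPM in the other library. That log2 ratio, 2.97, rests on 3 and 24 UMIs, and 13 of the 24 were in 1 barcode. Hspa1a went the other way, at 6.18 and 3.02 CPM, and the pair together stood at 7.72 and 15.1 CPM. Hspb1 was lower, at 38.6 and 14.6 CPM, with 34 of its 75 control UMIs in 1 barcode. Dnajb1 stood there at 10.8 and 24.6 CPM, a log2 ratio of 1.19. Median depths were 823 and 2564 UMIs.

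Among the 1689 and 1097 barcodes with a mitochondrial share of 10% or more, Hspa1a stood at 2.89 and 24.5 CPM, a log2 ratio of 3.08, with 108 of its 177 UMIs in the library labelled TBL/RβKO in 1 barcode. Bag3 stood at 19.3 and 51.6 CPM (log2 ratio 1.42), with at most 18 of 372 UMIs in 1 barcode, and Hspa8 at 137 and 285 CPM (log2 ratio 1.05). Hspb1 was lower here too, at 5.90 and 2.08 CPM, with 27 of 53 control UMIs in 1 barcode, and the HSP70 pair stood at 3.45 and 25.9 CPM.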

How the results depend on the processing

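The log2 ratio of Hspa1a + Hspa1b in the insulin class, 1.34 as reported, was 3.49 with barcodes of 6000 or more genes left out, 0.87 without barcodes that hold a second hormone, 0.89 scaled without hormone and mitochondrial genes, 2.18 with barcodes thinned to 5000 UMIs and 2.05 as a mean over barcodes. Among settings added after the data were seen it was 1.94 without barcodes holding 3 or more markers of another cell type, 1.11 without those under 500 insulin UMIs per 10000 and -0.36 without the 8 high barcodes, where the relative value of Hspa1b was -0.47 and where few UMIs remain by construction. For the other settings the cause was not tested. The count of members past 2-fold in the insulin class, 2 as reported, was 1 without a second hormone, with a mitochondrial share under 5%, without the 8 high barcodes and without barcodes under 500 insulin UMIs per 10000. Bag3 in the insulin class stayed between 2.12 and 2.58 relative to the median gene over 12 alternatives. Of 600 values of single members under an alternative, 472 stayed within the counting interval of the reported value, 127 did not, and 1 that had passed 2-fold, Hspa1b as above, changed sign. Values short of 2-fold that changed sign are not in that count of 1. In the insulin class Hspa1a, just short of 2-fold, kept its sign in 11 of 12 alternatives and reached -0.80 at the lowest. Hspb1 there kept its sign in 8 of 12. No paired analysis was possible because each group is 1 library. Depth limits the HSP70 pair outside the insulin class, where the hormone classes held 13 to 67 UMIs of it per library.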

Other observations

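Within the library labelled TBL/RβKO the members also varied with insulin content. In its 577 insulin class barcodes under 2000 insulin UMIs per 10000 Hsp90ab1 stood at 1120 CPM and Hspa8 at 682 CPM, against 762 and 557 CPM in the 761 above it, while Dnajb1 was nearly level, at 15.6 CPM (14.4 to 16.9) and 15.7 CPM (14.8 to 16.7). Bag3 stood at 85.1 CPM (82.2 to 88.0) and 76.6 CPM (74.5 to 78.8). These are parts of 1 library, and insulin takes a larger share of the UMIs above 2000, which by itself lowers the CPM of other genes.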
